A study of Mus musculus with 14 samples.

Results

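The miR-15/16 family is a group of microRNAs (miRNAs) that share the start of their mature strand and are known for holding back the cell cycle. Its members here are the 8 hairpins mmu-mir-15a, mmu-mir-15b, mmu-mir-16-1, mmu-mir-16-2, mmu-mir-195a, mmu-mir-497a, mmu-mir-322 and mmu-mir-503 (written below without the species prefix), chosen by name, and all 8 are among the 539 hairpins of the authors' deposited table. Small RNA was sequenced from exosomes, small vesicles that carry miRNAs between cells, which CD11b+F4/80+ macrophages from adipose tissue of C57BL/6 mice had released over 72 h of culture in medium with 10% exosome-free serum. The labels give 7 libraries of exosomes from obese mice and 7 from lean mice, without saying how obesity was brought about or whether a library came from 1 animal or a pool, so the p-values cover no more than the spread among these libraries. The age labels start at 24 weeks in every library and end at 26 to 32 weeks in the obese group and at 33 to 39 weeks in the lean group, rising by 1 week from each listed library to the next. If those labels hold, age and obesity cannot be told apart.

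The authors' deposited table compares the groups with 1 log2 fold change, 1 mean log2 expression over all libraries and 1 p-value per hairpin. No column holds a single library's values, so the level in each library, the mean of each group and the depth are unknown here, and whether the groups overlap was not analysed. The test is read as limma's from the column names, since the submitters' notes name limma and edgeR without their roles. Which group is the numerator is unstated. The published study of these exosomes reports, outside the files used here, that miR-155 was higher in the obese group. Since mir-155 stands at 4.41 in the authors' deposited table, a positive value is read here as the side of mir-155, which under that report is the obese side. Each row is a hairpin, with no split by arm, so its 5p and 3p strands are not separated. Leukocyte and macrophage hairpins were present, with mean log2 expression of 9.70 for mir-142a, 7.62 for mir-223 and 11.99 for mir-146a in the authors' deposited table. These markers were chosen after their values were seen and not from a fixed list, so they are no check of cell identity.

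A miRNA guides the silencing complex to messenger RNAs that pair with its seed, bases 2 to 8 from its 5′ end. Messenger RNAs targeted through the seed of this family include those of D-type cyclins, cyclin E, the checkpoint kinase Chek1 and the survival factor Bcl2, so that high levels of the family are known to slow entry into the cell cycle. The pair miR-15a and miR-16 is lost in many chronic lymphocytic leukaemias, and miR-16, present in most cell types and in blood, is often used as a reference miRNA for RNA from body fluids and vesicles.

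The mature 5p strands show what the members share and where they part. They are RefSeq's sequences on GRCm38.p6, 5′ to 3′, with the seed in capitals, and all 8 hairpins matched that table.
miR-16-5p (mir-16-1 and mir-16-2): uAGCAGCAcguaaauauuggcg
miR-195a-5p: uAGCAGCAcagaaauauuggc
miR-15a-5p: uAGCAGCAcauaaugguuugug
miR-15b-5p: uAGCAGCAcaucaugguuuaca
miR-497a-5p: cAGCAGCAcacugugguuugua
miR-322-5p: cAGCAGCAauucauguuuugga
miR-503-5p: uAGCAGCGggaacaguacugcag
Bases 2 to 7 are the same in all, and base 8 sets miR-503-5p apart from the other strands. The seed thus forms 2 groups, miR-503-5p on 1 side and all other strands on the other. Counted from 1 at the 5′ end, miR-195a-5p differs from miR-16-5p by 2 of 21 bases, G10A and U11G. The strands of mir-15a and mir-15b are equal at 18 of 22 positions, and differ by C12A, A20G, C21U and A22G when read from miR-15b-5p to miR-15a-5p. Between miR-503-5p and miR-497a-5p, 10 of 22 positions are equal, the fewest of any pair of these strands.

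The hairpins lie in 4 pairs on GRCm38, placed by RefSeq and by GENCODE M21. The authors' own build was not given in the sources used here. On chromosome 14, mir-15a (ENSMUSG00000093007.1, bases 61632027 to 61632110) and mir-16-1 (ENSMUSG00000092995.1, bases 61631880 to 61631972) are 54 bases apart on the minus strand within the long noncoding RNA gene Dleu2, mir-15a in an intron and mir-16-1 overlapping an annotated exon. On chromosome 3, mir-15b (ENSMUSG00000065580.2, bases 69009772 to 69009835) and mir-16-2 (ENSMUSG00000065606.1, bases 69009902 to 69009996) are 66 bases apart in an intron of Smc4, a condensin gene, on its strand. On chromosome 11, mir-497a (ENSMUSG00000105220.1, bases 70234717 to 70234800) and mir-195a (ENSMUSG00000065411.2, bases 70235042 to 70235135) are 241 bases apart, outside annotated hosts. On the minus strand of chromosome X, mir-503 (ENSMUSG00000076122.1, bases 53053984 to 53054054) and mir-322 (ENSMUSG00000065418.1, bases 53054255 to 53054349) are 200 bases apart, also outside annotated hosts.

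The family was carried mainly by miR-16. The mean log2 expression of mmu-mir-16-1 was 11.14 in the authors' deposited table and that of mmu-mir-16-2 also 11.14, ranks 41 and 42 of 539 by abundance. The members mmu-mir-15b, at 8.18 and rank 114, and mmu-mir-15a, at 7.33 and rank 130, came next in the authors' deposited table. The hairpin mir-322 was at 5.48 (rank 175), mir-195a at 4.01 (rank 215), mir-503 at 3.22 (rank 236) and mir-497a at 2.43 (rank 267) in the authors' deposited table. The last value is just above 2.34, the median of all hairpins. When miR-16 is counted once and the mean log2 levels are brought back to the linear scale, miR-16 makes up 81.1% of the family's summed level, mir-15b 10.4%, mir-15a 5.76%, mir-322 1.60%, mir-195a 0.578%, mir-503 0.333% and mir-497a 0.193%. These shares assume that each miR-16 row holds all reads common to both copies. If reads were split between the copies, the share of miR-16 would be higher and the others lower. The mature strands are 21 to 23 bases long, and any effect of strand length or sequence on these levels was not tested. Whether neighbours in this order differ beyond their spread could not be tested, because the spread of a level over libraries is not in the table.

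**Figure D1:**
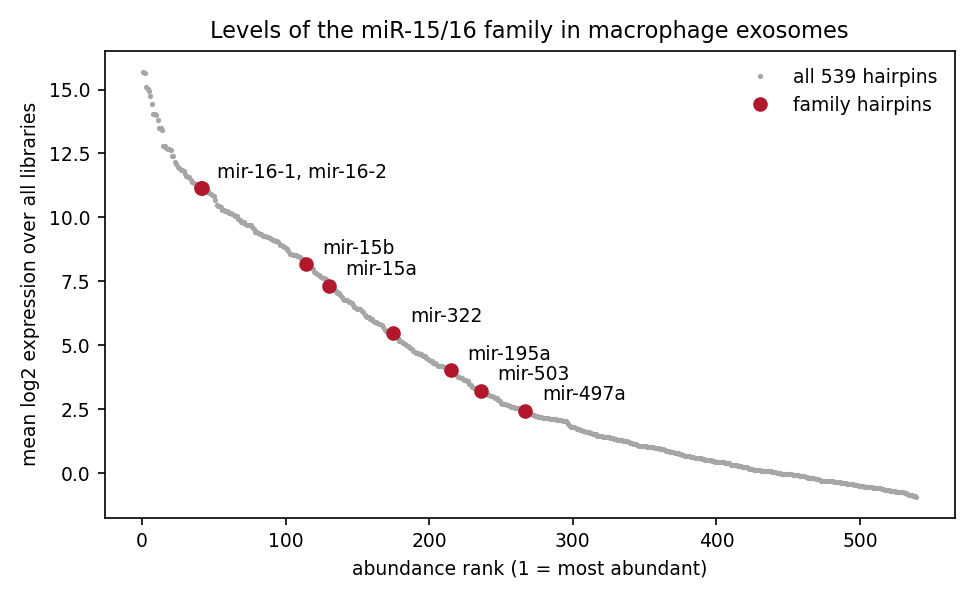
Mean log2 expression over all libraries (vertical axis) of all 539 hairpins in the authors' deposited table, against their rank by abundance (horizontal axis), with the 8 family hairpins in red. The copies mir-16-1 and mir-16-2 share a place at 11.14, and the other members run down to mir-497a at 2.43.

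Within each genomic pair the members stood at unequal levels. Between the Dleu2 hairpins, mir-16-1 was 14.1-fold above mir-15a by mean level in the authors' deposited table, and between the Smc4 hairpins mir-16-2 was 7.76-fold above mir-15b. On chromosome 11, mir-195a was 2.99-fold above mir-497a, and on X mir-322 was 4.82-fold above mir-503, from mean levels in the authors' deposited table. Both mir-16-1 and mir-16-2 give the same mature miR-16-5p, so each of the first 2 ratios can hold reads from both loci.

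The comparison asks whether exosomes of obese and lean macrophages differ in these miRNAs. In RNA pooled from all vesicles of a culture, fewer cells or vesicles of a kind and less miRNA in each cannot be told apart. None of the 8 family hairpins passed the authors' limma test at an adjusted p under 0.05, beside 30 of all 539 hairpins (5.57%, of which 2.04% on the positive side and 3.53% on the negative side) in the authors' deposited table. Of the 8, 0 had an adjusted p under 0.1, beside 8.35% of all hairpins, and 0 an unadjusted p under 0.05, beside 17.6%. A share of 5.57% comes to less than 1 hairpin in 8, so the count of 0 does not set the family apart. The fold changes were positive for 6 members and negative for mir-15a and mir-195a, and their median was 0.24, beside 0.09 for all hairpins, from the authors' deposited table. The signs of mir-16-1, mir-16-2 and mir-503 turned when all values were recentred by 0.34, the median fold change of the 180 most abundant hairpins, which left 3 members positive and moved the family median to −0.10 and that of all hairpins to −0.25.

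**Figure D2:**
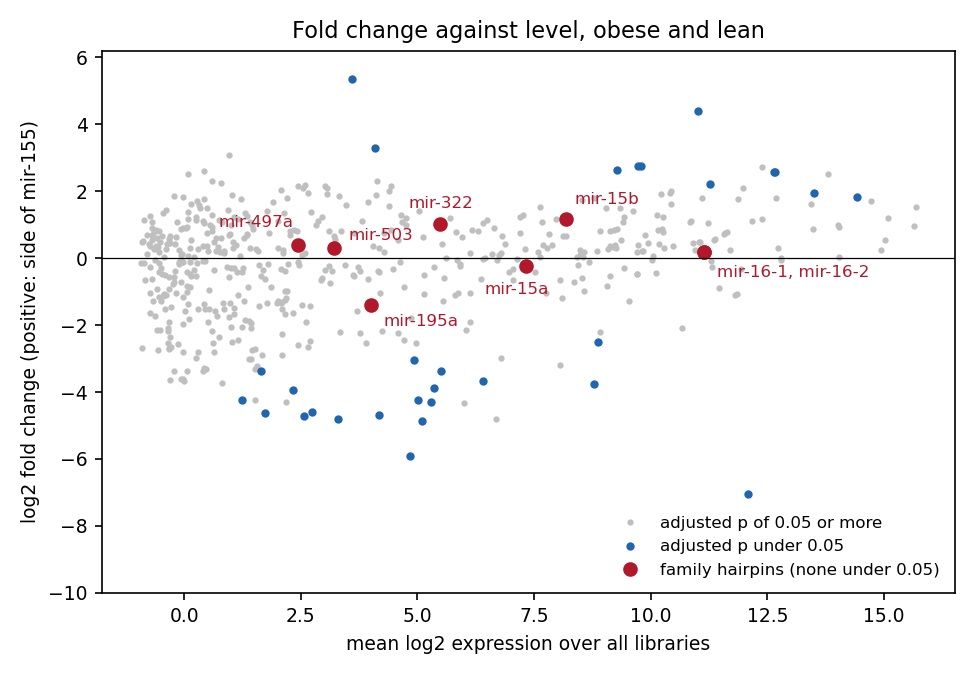
Log2 fold change between obese and lean (vertical axis, positive on the side of mir-155) against mean log2 expression (horizontal axis) in the authors' deposited table, with called hairpins in blue and the family in red. The family values lie between −1.41 for mir-195a and 1.18 for mir-15b, inside the grey field of hairpins that did not pass.

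The most abundant member, miR-16, had the tightest estimate of the family. The hairpin mir-16-1 had a log2 fold change of 0.18 in the authors' deposited table (adjusted p = 0.929 in limma), and its standard error of 0.55, from the fold change and t, was the 29th smallest of 539. Its 95% interval ran from −0.97 to 1.34, that is from 0.509-fold to 2.53-fold. The copy mir-16-2 was also at 0.18 in the authors' deposited table (adjusted p = 0.929 in limma), with an interval from −0.98 to 1.35. A difference of up to about these sizes in either direction is therefore not excluded, while mir-155, of a like mean level of 11.02, stood at 4.41 in the authors' deposited table, with an interval from 2.75 to 6.06.

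Of the mature strands of the copies, the 5p strands are identical and the 3p strands differ. The 3p strands are printed here from RefSeq with bases 2 to 8 in capitals.
miR-16-1-3p: cCAGUAUUgacugugcugcuga
miR-16-2-3p: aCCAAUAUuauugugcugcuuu
Aligned from base 1, these strands are equal at 12 of 22 positions, and their longest shared run is 9 bases. The copies differ by 0.0021 in log2 fold change and by 0.0095 in mean level (log2) in the authors' deposited table, so the 2 rows are taken as in effect 1 measurement. How reads matching both hairpins were assigned was not given in the sources used here.

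Partners of miR-16 at these loci, mir-15a and mir-15b, had values of opposite sign, as deposited and after recentring by 0.34. The hairpin mmu-mir-15b was at 1.18 (limma, adjusted p = 0.395) in the authors' deposited table. No other member had a larger positive value, and it is 2.27-fold on the linear scale. Its standard error was 0.70 and its 95% interval ran from −0.30 to 2.66. For mmu-mir-15a the authors' deposited table gives −0.25 (limma, adjusted p = 0.910), with a standard error of 0.62 and an interval from −1.54 to 1.05. The values are 1.43 apart on the log2 scale, and the intervals share the stretch from −0.30 to 1.05. That difference was not tested, since a test of one hairpin against another needs values per library.

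On chromosome 11, mir-195a, a miRNA known to restrain division of heart muscle cells after birth, had the most negative value of the family. The authors' deposited table puts mir-195a at −1.41 (limma, adjusted p = 0.465), which is 0.376-fold, with a standard error of 0.93, the widest of the family, and a 95% interval from −3.37 to 0.54. Its pair partner mir-497a was at 0.39 (limma, adjusted p = 0.898) in the authors' deposited table, with an interval from −1.40 to 2.17. All 84 bases of the mir-497a hairpin lie within mir-497b, which is annotated on the opposite strand. In the authors' deposited table mir-497b was at 0.84 (limma, adjusted p = 0.654) with a mean log2 expression of 2.36, beside 2.43 for mir-497a. The use of strand in counting was not given in the sources used here, so reads of these 2 rows may not be separate.

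The X pair, miR-322 and miR-503, is known for promoting exit from the cell cycle in muscle precursors. The hairpin mir-322 was at 1.02 (limma, adjusted p = 0.529) in the authors' deposited table, or 2.02-fold, with a standard error of 0.77 and a 95% interval from −0.61 to 2.64. For mir-503 the authors' deposited table gives 0.29 (limma, adjusted p = 0.926), with an interval from −1.46 to 2.05, and recentring by 0.34 moved it to −0.05. Beside them on X lie mir-351, mir-542, mir-450a-1, mir-450a-2 and mir-450b, so that the 7 hairpins span 6353 bases, from base 53047997 to base 53054349. None of these 5 neighbours passed limma's test, with 0 at an unadjusted p under 0.05, beside 5.57% called and 17.6% unadjusted among all hairpins. All 5 were positive in the authors' deposited table, beside 52.7% of all hairpins. After recentring by 0.34, 4 were positive, beside 41.0% of all hairpins, and mir-450a-1 turned to −0.19. Lying close together, with a mature sequence shared by mir-450a-1 and mir-450a-2, the 5 may not be separate observations. Their median was 0.66, and mir-351 came nearest to the threshold, at 1.24 with an adjusted p of 0.307 (limma) in the authors' deposited table. Its mean log2 expression of 10.27 in the authors' deposited table was 27.6-fold above that of mir-322 on the linear scale.

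**Figure D3:**
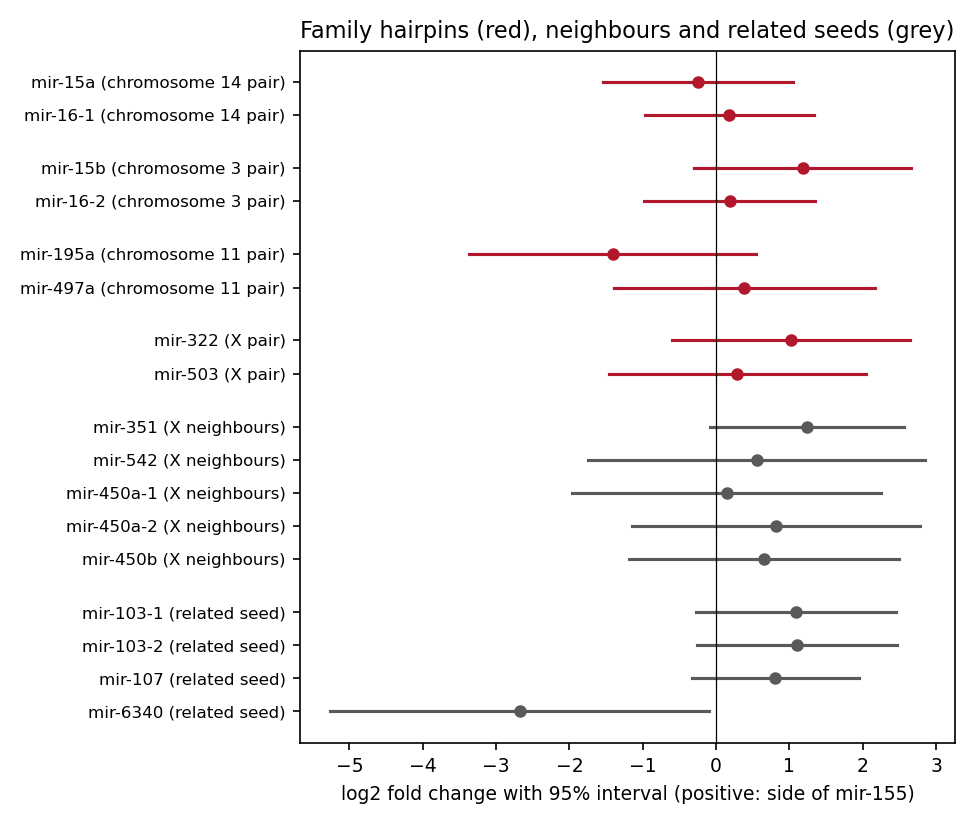
Log2 fold change (points) with 95% interval (lines) of the family hairpins in red, grouped by genomic pair, and of their X neighbours and hairpins with a related seed in grey, computed from the authors' deposited table. All 8 red intervals include 0, and among the grey ones that of mir-6340 alone does not.

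Other miRNAs carry the same 6 bases, AGCAGC, at or near their start. These bases are bases 2 to 7 of all family 5p strands, and they were searched for on the mature strands alone, within their first 9 bases. Of 856 mature sequences matched to 494 of the 539 hairpins, 12 (1.40%) hold them, counting miR-16-5p at both of its loci. Outside the family these are miR-103-3p at its 2 loci, miR-107-3p and miR-6340. They are printed to show the shift of the shared bases, in capitals.
miR-103-3p: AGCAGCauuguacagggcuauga
miR-107-3p: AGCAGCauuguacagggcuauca
miR-6340: gucAGCAGCagcuucgcuuuggc
In miR-103 and miR-107, which are known to act on insulin signalling, the shared bases begin at base 1, and in miR-6340 at base 4, so their seeds are not that of the family. None of the 4 related hairpins passed the authors' limma test, and 1 had an unadjusted p under 0.05, beside 5.57% and 17.6% of all hairpins. Log2 fold changes were 1.09 for mir-103-1 (limma, adjusted p = 0.396), 1.11 for mir-103-2 (0.395) and 0.81 for mir-107 (0.472) in the authors' deposited table. Their mean levels in the authors' deposited table were 10.85, 10.86 and 8.91. The little-studied mir-6340 was at −2.68 (limma, adjusted p = 0.258) at a mean level of −0.33 in the authors' deposited table.

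Hairpins of similar abundance give the setting for each member. For each one the 3 hairpins of other miRNAs nearest in mean log2 expression over the 14 libraries were taken. Beside miR-16 stood mir-27a, mir-99a and mir-26a-1, at 1.80 (limma, adjusted p = 0.0740), 1.05 (0.465) and 0.48 (0.695) in the authors' deposited table. Around mir-15b were mir-361 at 0.65, mir-326 at 0.67 and mir-664 at −1.19, and around mir-15a were mir-1843a at 0.27, mir-582 at 1.28 and mir-18a at 0.77, none of them called in the authors' deposited table. The nearest to mir-322 were mir-712, called at −3.38 (limma, adjusted p = 0.0295), mir-677 at 0.42 and mir-193a at −1.27 in the authors' deposited table. Next to mir-195a were mir-149, called at 3.31 (limma, adjusted p = 0.0112), mir-3471-2 at 0.38 and mir-219a-1 at −0.63 in the authors' deposited table. The neighbours of mir-503 were its X neighbour mir-450b at 0.66, mir-150 at 0.59 and mir-5126 at −0.38, and those of mir-497a were mir-6955 at −0.13, mir-450a-2 at 0.82 and mir-703 at −2.58, none called in the authors' deposited table. Calls thus occurred at the levels of mir-322 and mir-195a, at sizes over 3 on the log2 scale.

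To reach the smallest absolute t that was called, 3.53, mir-16-1 would have needed a log2 fold change of 1.94, given its own standard error. On the same basis mir-15a would have needed 2.18, mir-15b 2.48, mir-322 2.73, mir-503 2.95, mir-497a 2.99 and mir-195a 3.28. A call could come at a slightly smaller t, so these are not exact limits. Over the 180 most abundant hairpins the median standard error of 0.76 asks for 2.69.

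Other miRNAs of the cell cycle were taken as lists for comparison. Of 17 hairpins known to restrain it outside the family, 16 were in the table. Of these, 0 were called on the positive side and 1 on the negative side in the authors' deposited table, beside 2.04% and 3.53% of all hairpins, with a median of 0.35 beside 0.09. The called one was mir-29b-1, of the miR-29 family that targets Cdk6, at −3.66 (limma, adjusted p = 0.0310), and the next smallest p was that of mir-29a, at 2.0 (0.0614) in the authors' deposited table. The copy of mir-29b-1, mir-29b-2, shares a mature sequence with it and stood at −0.54 (limma, adjusted p = 0.896) in the authors' deposited table, a gap of 3.12. Of 12 hairpins known to promote the cell cycle, which belong to the miR-17-92 and miR-106b-25 clusters, the miR-221/222 pair and miR-21a, 1 was called on the positive side and 0 on the negative side, beside the same 2.04% and 3.53%, with a median of 0.94 in the authors' deposited table. Called was mir-222, which targets the inhibitor p27, at 1.82 (limma, adjusted p = 0.0240), followed by mir-106b, which targets the inhibitor p21, at 1.81 (0.0614) in the authors' deposited table. An unadjusted p under 0.05 was held by 2 of the 16 restraining and 6 of the 12 promoting hairpins, beside 17.6% of all hairpins and 0 of the 8 in the miR-15/16 family. All 12 promoting hairpins are among the 180 most abundant, where the median fold change was 0.34, the median standard error 0.76 and 16 were called. Shares and medians over all hairpins are thus not matched to them in level. Members of one cluster, such as mir-106b, mir-93 and mir-25, or of the miR-221/222 pair may not be separate observations. After recentring by 0.34 the medians were 0.0093 and 0.60, and mir-222 no longer passed, at 1.48 (adjusted p = 0.0704), so 0 promoting hairpins were called. The lists are not complete, and the counts depend on which hairpins were listed. Hairpins of let-7 are on neither list. Of them, let-7i was called on the positive side at 1.95 (limma, adjusted p = 0.0383), while let-7d was at −0.33 (0.850) in the authors' deposited table. These counts describe the lists, and no difference between them was tested.

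**Figure D4:**
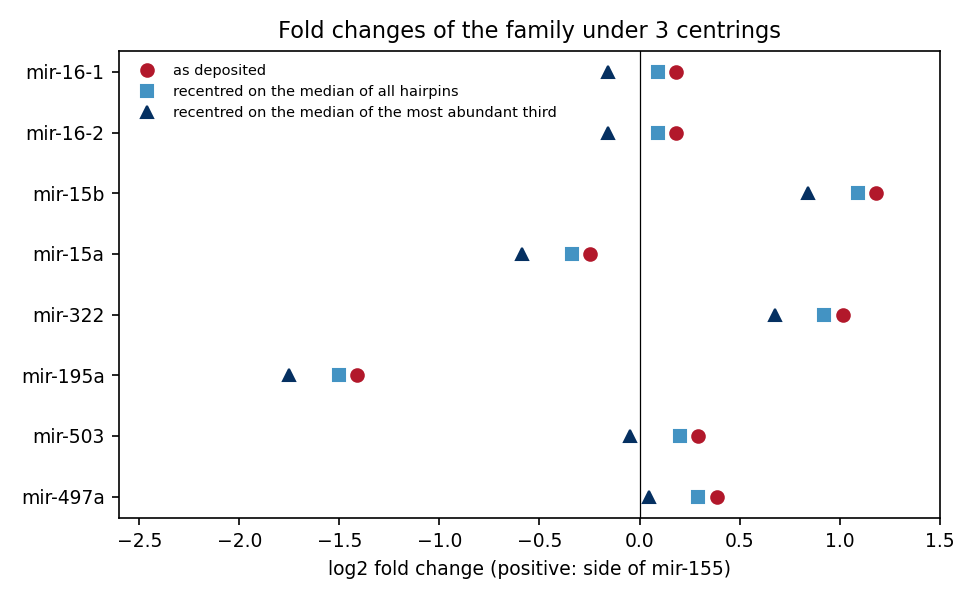
Log2 fold change of each family hairpin (horizontal axis) in the authors' deposited table and after 2 recentrings, on the median of all hairpins and on the median of the 180 most abundant. Signs of mir-16-1, mir-16-2 and mir-503 turn under the second recentring, and those of mir-15b, mir-322, mir-497a, mir-15a and mir-195a do not.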

How the data were processed

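Per the submitters' processing notes, limma, edgeR, Novoalign, Trimmomatic 0.30, MultiQC and FastQC were used, in roles that they do not state. Build, miRNA annotation and scaling between libraries were not given in the sources used here. Fold changes and mean expression are log2 values in the authors' deposited table, t is a deposited score (a moderated t), p-values are deposited unadjusted and adjusted, and B is a natural log of odds, per the file headers, and was not used. Adjusted p-values matched Benjamini-Hochberg over the 539 deposited rows to within 1.46e-14. The design allowed for a fit to values per library, but the table has 0 such columns, so the authors' limma results were taken as deposited. From t and p, 17.9 degrees of freedom were recovered, the standard error is the fold change over t, and 95% intervals use both (python 3.11.15, scipy 1.17.1, checked on simulated data). With depth per library unknown, values carry no counting interval. Alternatives were 2 recentrings, a mean log2 expression of at least 3.32, 1 hairpin per stem and other thresholds. Named hairpins are the members, the 3 nearest in level, those with a related seed, the X neighbours and the 2 of smallest p per list. Added after their values were seen were mir-155, the marker hairpins, mir-497b, let-7i and let-7d. Members and lists were chosen with earlier results of these data known.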

Additional observations from a re-analysis of the deposited data

How the results depend on the processing

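The count of called family hairpins was 0 as deposited, under both recentrings, above the mean log2 expression of 3.32, with 1 hairpin per stem, at an adjusted p under 0.1 (8.35% of all hairpins) and at an unadjusted p under 0.05. Above 3.32, where mir-503 and mir-497a drop out, 13.9% of 231 hairpins were called. Positive members numbered 6 of 8 as deposited and after recentring by 0.09 on all hairpins, and 3 after recentring by 0.34 on the 180 most abundant. That last recentring turned mir-16-1 to −0.16, mir-16-2 to −0.16 and mir-503 to −0.048, by its own construction, and split all calls into 8 positive and 25 negative, beside 11 and 19 as deposited. The smallest adjusted p of the family over these alternatives was 0.330, for mir-15b above 3.32. No paired analysis was possible because values of single libraries are not among the columns analysed, and leaving out a replicate was not run for that reason. The unknown depth limits what can be said of the low members.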

Other observations

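Among hairpins whose names differ only in the copy number at the end, 31 pairs share a mature sequence in RefSeq. Pairs with other names, such as copies told apart by a letter, were not compared. The log2 fold changes of mir-16-1 and mir-16-2 in the authors' deposited table were the closest of all 31, with a gap of 0.0021 beside a median gap of 0.28. In 12 pairs the gap was under 0.1, among them mir-181a-1 with mir-181a-2 (0.0097) and mir-26a-1 with mir-26a-2 (0.015). In 5 pairs it was over 1, and 4 pairs had opposite signs. The widest gap was that of mir-365-1 and mir-365-2, at 0.98 and −3.75 in the authors' deposited table. Next widest were mir-29b-1 and mir-29b-2, 3.12 apart. The X neighbours mir-450a-1 and mir-450a-2 were 0.67 apart, at 0.15 and 0.82 in the authors' deposited table. These pairs were examined after their values were seen, and no difference between copies was tested.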
